A study of Mus musculus with 4 samples.

Results

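The clustered protocadherin locus of the mouse is a stretch of chromosome 18 that carries the Pcdha, Pcdhb and Pcdhg gene arrays. Its members here are all CpGs that the deposited methylation calls list at chr18:37050000-38020000 of the mm9 build, a span of 970 kb set by position alone. Reduced representation bisulfite sequencing, which reads CpGs near the cut sites of restriction enzymes, covered 928 of them in at least 1 of 4 libraries, out of 1480609 CpGs covered in the genome. The libraries came from 2 cell types of 2 genotypes on the CBAxC57BL/6J background, with DNA of 6 to 9 mice pooled into 1 library for each condition. Hematopoietic stem and progenitor cells (HSPC) were sorted from bone marrow as Sca1+Lin-, and mature B cells were sorted from peripheral blood as B220+. Mice were either wild-type or Sca1-BCL6Δ. Sca1-BCL6Δ mice carried a floxed mouse Bcl6-IRES-eGFP cassette driven by the Sca1 promoter, and Cre recombinase from the Cd79a locus (mb1-Cre) removed it in cells that had switched on Cd79a. In that design the transgene was present in the Sca1-BCL6Δ HSPC and deleted in the Sca1-BCL6Δ B cells. The methods text speaks of several transgenic lines and does not say which gave the DNA, and the ages of the mice are not given in the sources used here. The files hold no expression values, so the sorted cell types could not be checked against marker genes.

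Clustered protocadherins are adhesion molecules of the cell surface, best known from neurons. Each variable exon of the Pcdha and Pcdhg arrays has a promoter of its own and is spliced to constant exons shared by its array, whereas each Pcdhb gene stands alone. A neuron uses a small, largely random choice of these promoters, which gives it an identity that its own branches recognise, and methylated DNA at a promoter is known to go with silence of its exon. RefSeq names 14 Pcdha, 22 Pcdhb and 22 Pcdhg genes on the GRCm38.p6 assembly, with Slc25a2 and Taf7 lying between the Pcdhb and Pcdhg arrays. An mm9 annotation was not used here, so no step or CpG below is assigned to a single gene, exon or promoter.

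Coverage of the locus was thin and unequal. The wild-type HSPC library covered 717 of its CpGs at a median of 5 reads, the Sca1-BCL6Δ HSPC library 562 at 3, the wild-type B cell library 869 at 8 and the Sca1-BCL6Δ B cell library 715 at 4. At least 10 reads lay on 169, 33, 361 and 89 CpGs in the same order, and 2584, 1324, 4721 and 2032 reads fell in the locus. The wild-type HSPC library stood apart from the others across the genome: CpGs above 80% in the combined reads of the B cell libraries had a mean level of 79.3% in it and 92.9% in the Sca1-BCL6Δ HSPC library. With 1 library for each condition there is no replicate error, and every interval given here covers counting error only, since PCR copies of a molecule cannot be told from separate molecules. In bulk DNA, a site methylated in part of the cells and a site methylated on part of the alleles of each cell cannot be told apart.

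The protocadherin locus was more methylated than most of the genome sampled by the method. Over the 137 locus CpGs with at least 5 reads in every library, the mean methylation level in HSPC was 57.5% for wild-type and 63.4% for Sca1-BCL6Δ, and in B cells it was 65.5% and 65.7%. Outside the locus, 345423 CpGs meeting the same minimum gave 36.7%, 40.6%, 41.4% and 41.1%, and the rest of chromosome 18 gave 37.9%, 42.5%, 43.0% and 42.9%. The gap was wider in the medians, which were 63.6%, 72.7%, 75.0% and 76.9% in the locus against 17.6% to 22.2% outside it. The locus was above the rest of its chromosome and of the genome in all 4 libraries, by an amount that depended on which CpGs entered. Over CpGs of at least 1 read in every library it had 59.5%, 63.5%, 66.9% and 66.0%, against 49.4%, 56.6%, 57.0% and 57.1% on the rest of chromosome 18. Over each library's own CpGs of at least 5 reads the wild-type B cell values were 65.1% and 60.0%.

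The locus also held many CpGs that were neither methylated nor unmethylated. Levels from 20% to 80% were measured at 78 of the 137 CpGs in wild-type HSPC (56.9%) and 58 in Sca1-BCL6Δ HSPC (42.3%), and in B cells at 59 for wild-type (43.1%) and 58 for Sca1-BCL6Δ (42.3%). The corresponding shares outside the locus were 34.6%, 19.7%, 16.3% and 16.4%. At a CpG of 5 reads, 1 differing read is enough to enter this class. Median reads over all covered CpGs were 5, 3, 8 and 4 in the locus and 6, 4, 9 and 5 outside it. The effect of this depth on the shares was not tested. At the ends of the scale, 23, 21, 20 and 19 locus CpGs lay under 20%, and 36, 58, 58 and 60 lay over 80%. When the genome was laid out in windows of the same 970 kb, the share of intermediate CpGs was as high as in the locus in 37 of 1657 other windows in wild-type HSPC, 4 in Sca1-BCL6Δ HSPC, and 16 and 14 in the wild-type and Sca1-BCL6Δ B cell libraries. The X chromosome had 13 of the windows. It gave 12 of those as high as the locus in wild-type HSPC and 12 in each B cell library, and 0 in Sca1-BCL6Δ HSPC, and the sex of the pooled mice is not given in the sources used here. A mean level as high as that of the locus was more common, in 58, 85, 73 and 71 windows.

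**Figure D1:**
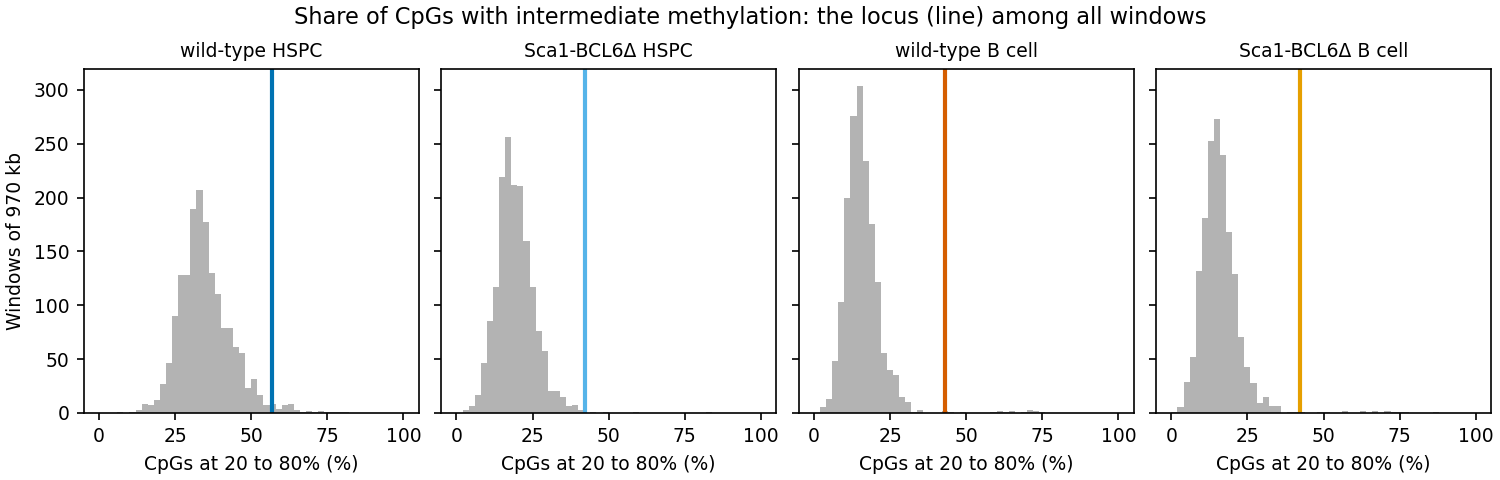
Windows of 970 kb across the genome, by the share of CpGs at 20% to 80% methylation, 1 panel for each library, with the number of windows on the vertical axis and the protocadherin locus as a line. The locus lies in the upper tail in all 4 panels, at 56.9% in wild-type HSPC and at 42.3% to 43.1% in the other libraries, where the medians of the other windows are 33.8% and 15.1% to 18.8%.

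Within the locus, methylation differed from one 20 kb step to the next in much the same places in all 4 libraries. Of 49 steps, 17 held at least 5 CpGs of at least 5 reads in each library. Their levels ran from 16.1% to 79.7% in wild-type HSPC, from 15.1% to 96.8% in Sca1-BCL6Δ HSPC, and in B cells from 20.1% to 90.4% for wild-type and from 15.5% to 89.6% for Sca1-BCL6Δ. Medians over the steps were 62.2%, 72.8%, 72.1% and 76.8%, against 45.8%, 45.8%, 53.7% and 48.5% over the 21350 steps outside the locus. Across the 17 steps, Pearson's r between pairs of libraries was 0.748 to 0.923, a description of the same places measured in each library, where the genome gave 0.933 to 0.964.

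The 3 lowest of these 17 steps are described first. The step at chr18:37950000-37969999, near the end of the locus, had the lowest mean, with 16.1% for wild-type and 15.1% for Sca1-BCL6Δ HSPC, then 20.1% for wild-type and 22.0% for Sca1-BCL6Δ B cells. In the same order of libraries, at chr18:37290000-37309999 the levels were 17.6%, 21.7%, 26.8% and 24.2%. Those at chr18:37790000-37809999 were 40.1%, 29.7%, 42.6% and 15.5%. The first and the second of these steps stayed within 10 percentage points over the 4 libraries, and the third spanned 27.1 points. Thinly covered steps outside the 17 were also low, as at chr18:37370000-37389999, chosen after its values were seen, where pooled reads gave 38.9%, 22.2%, 17.3% and 24%.

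The 3 highest of the 17 steps lay in the middle and at the start of the locus. The step at chr18:37650000-37669999 had HSPC levels of 75.9% for wild-type and 82.8% for Sca1-BCL6Δ, and B cell levels of 90.4% and 82.8%. At chr18:37090000-37109999 the levels were 72.6%, 82.0%, 79.7% and 89.4%, and at chr18:37670000-37689999 they were 70.7%, 90.8%, 82.2% and 79.4%. Wild-type HSPC had the lowest value of the 4 in each of these 3 steps. The last step of the locus, from chr18:38010000 and too thinly covered to be among the 17, was higher still, with 93.5%, 95.7%, 97.5% and 97.7% in pooled reads.

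**Figure D2:**
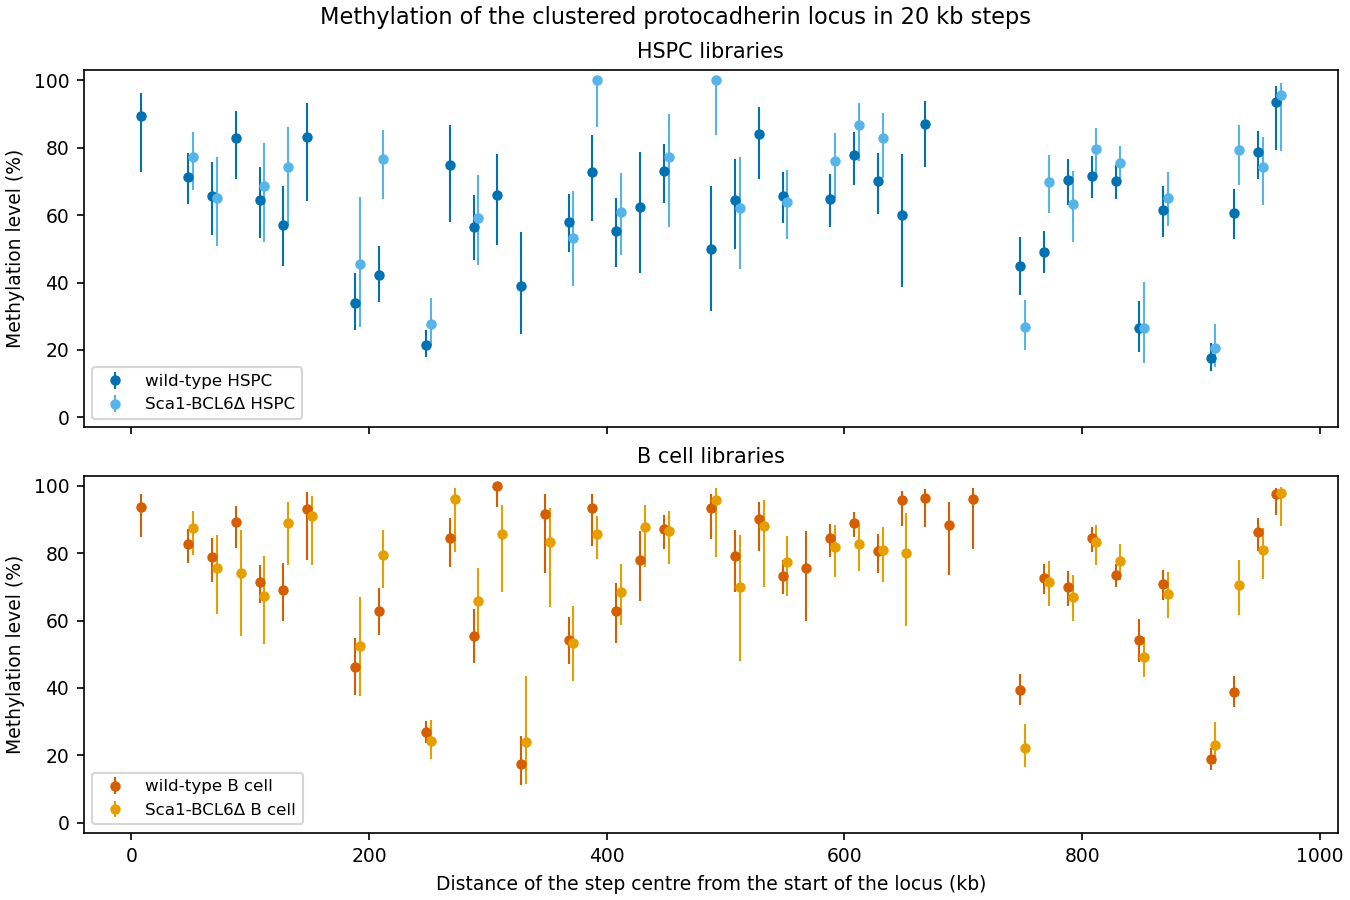
Share (%) of methylated CpG reads in each 20 kb step with at least 20 CpG reads, against the distance of the step's centre from the start of the locus (kb), with 95% Wilson intervals, HSPC libraries above and B cell libraries below. All 4 libraries are low in the steps centred at 250 kb (21.6% to 27.8%) and 910 kb (17.5% to 23.2%) and high in the step at 610 kb (77.9% to 89.1%).

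Short runs of neighbouring CpGs showed the same contrast at finer scale. A run was at least 5 CpGs with gaps of at most 100 bp, and 17 runs had at least 20 CpG reads in each library. Under 20% in all 4 libraries were 4 runs, over 80% in all 4 were 2, and at 20% to 80% in all 4 were 5. The last class was 29.4% of the locus runs and 4.09% of runs in the rest of the genome, where 51.3% of runs were under 20% throughout.

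The unmethylated runs lay in the 2 lowest steps. At chr18:37303442-37303634, with 11 CpGs, 4 of 91 CpG reads were methylated in wild-type HSPC (4.40%), 1 of 26 in Sca1-BCL6Δ HSPC (3.85%), and in B cells 9 of 119 for wild-type (7.56%) and 8 of 44 for Sca1-BCL6Δ (18.2%). At chr18:37303738-37303800 the levels were 7.61%, 4.17%, 18.2% and 6.90%. At chr18:37965905-37966249, with 15 CpGs, they were 8.96%, 12%, 6.78% and 8.33%. Sca1-BCL6Δ HSPC was the lowest library in the first and second of these runs and the highest in the third. In the first and second its Wilson interval overlapped that of every other library. The fourth run, at chr18:37966375-37966473, had 10.2% in wild-type HSPC, B cell levels of 15.2% for wild-type and 19.6% for Sca1-BCL6Δ, and 0 of 41 CpG reads in Sca1-BCL6Δ HSPC. A count of 0 there allows a level of up to 7.32% by a limit of 3 counts, or 8.57% by the Wilson interval.

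Intermediate runs included one in the same step as the first unmethylated pair. At chr18:37304406-37304657, with 11 CpGs, the level was 32.0% in wild-type HSPC (95% Wilson interval 23.8% to 41.6%), 40.9% in Sca1-BCL6Δ HSPC (27.7% to 55.6%), 33.0% in wild-type B cells (27.2% to 39.4%) and 35.4% in Sca1-BCL6Δ B cells (23.4% to 49.6%). These 4 intervals overlap, and each lies above the level of chr18:37303442-37303634 in the same library. At chr18:37602033-37602123 the levels were 56.5%, 62.2%, 67.8% and 65.8%. At chr18:37885400-37885581 they were 57.1%, 72.7%, 68.3% and 69.6%, and at chr18:37886280-37886413 they were 63.1%, 73.2%, 62.6% and 64.1%. In each of these 3 runs the Wilson intervals of the 4 libraries overlapped.

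In the remaining intermediate run both Sca1-BCL6Δ libraries had higher levels than both wild-type libraries. At chr18:37250005-37250053, with 5 CpGs, 29 of 54 CpG reads were methylated in wild-type HSPC (53.7%, interval 40.6% to 66.3%) and 29 of 68 in wild-type B cells (42.7%, 31.6% to 54.5%). In Sca1-BCL6Δ cells the counts were 26 of 33 in HSPC (78.8%, 62.3% to 89.3%) and 25 of 33 in B cells (75.8%, 59.0% to 87.2%). The intervals of the 2 genotypes overlapped in HSPC and not in B cells, and those of the 2 cell types overlapped within each genotype. For the 1 kb tile that holds the run, over CpGs of at least 5 reads, the Cochran-Mantel-Haenszel test between genotypes gave an unadjusted p of 0.263 in HSPC from 3 thinned CpGs and of 1.0 in B cells from 2, and the tile was not called. CpGs on 1 read share its molecule, so these intervals are too narrow, and with 1 pool for each condition no test over mice could be made. Reads over 4 of the 5 CpGs, at chr18:37250031-37250053, numbered 11 and 7 in wild-type and Sca1-BCL6Δ HSPC, and 10 and 6 in B cells. Their mean levels were 65.9% and 92.9% in HSPC and 62.5% and 100% in B cells, in the same order of genotypes. Each is above the run's level in its library, so that level also depended on the share of other, less methylated CpG reads. The Sca1-BCL6Δ counts of the run rest largely on the 7 and 6 reads.

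**Figure D3:**
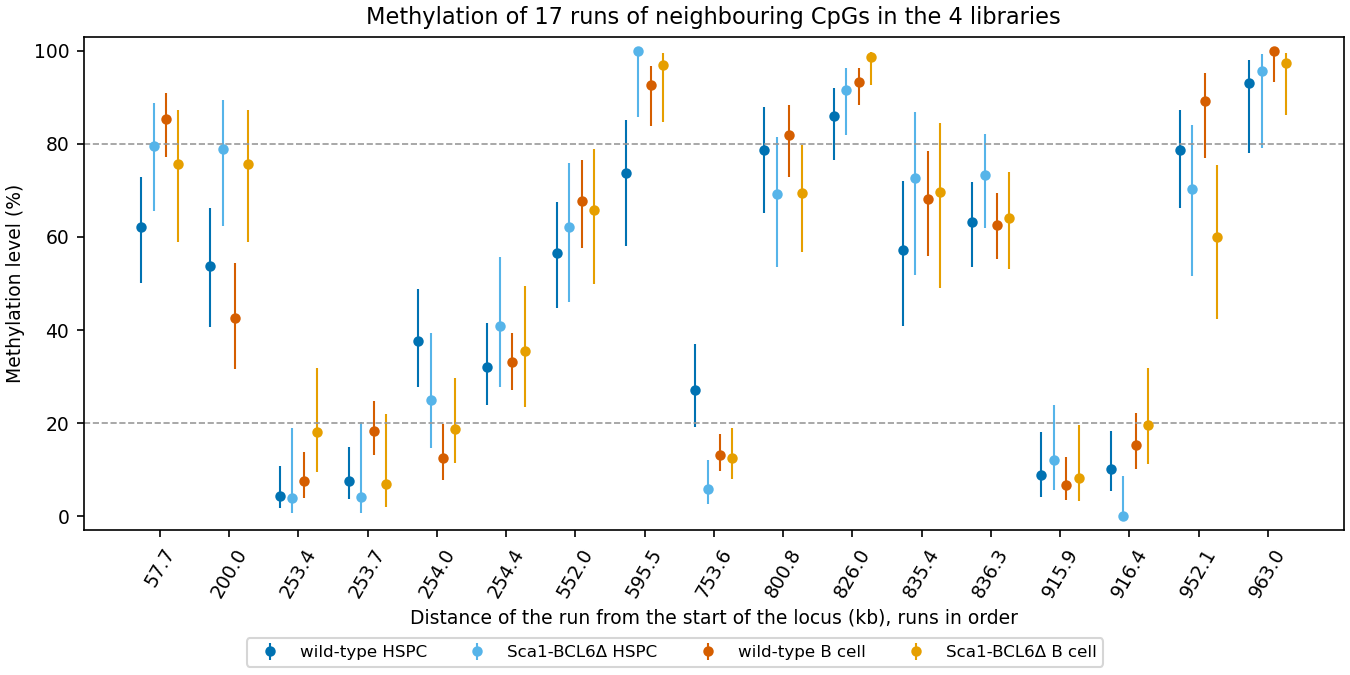
Methylation level (%) of the 17 runs of neighbouring CpGs in order along the locus, labelled by distance from its start (kb), with 95% Wilson intervals and dashed lines at 20% and 80%. The 4 runs at 253.4, 253.7, 915.9 and 916.4 kb lie under 20% in all 4 libraries, and the run at 254.4 kb lies at 32.0% to 40.9%.

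Single reads showed whether intermediate levels came from reads of 2 kinds or from reads that were themselves mixed. Among reads with at least 3 CpGs, 450 in wild-type HSPC, 236 in Sca1-BCL6Δ HSPC and, in B cells, 913 for wild-type and 350 for Sca1-BCL6Δ lay in the locus. Mixed reads, with methylated and unmethylated CpGs on the same molecule, were 26.7% of them in wild-type HSPC (exact binomial 95% interval 22.6% to 31.0%), 25.4% in Sca1-BCL6Δ HSPC (60 of 236 reads, interval up to 31.5%), 33.1% in wild-type B cells (30.03% to 36.2%) and 33.1% in Sca1-BCL6Δ B cells (28.2% to 38.3%). Outside the locus the shares were 18.6%, 12.7%, 16.6% and 13.5%, each below the interval of the same library. Reads with no methylated CpG were 40.4%, 34.3%, 34.2% and 28.3% in the locus and 59.6%, 64.8%, 58.9% and 62.6% elsewhere. Compared with windows of the same length, the locus share of mixed reads was reached by 85 of 1791 in wild-type HSPC, 11 of 1566 in Sca1-BCL6Δ HSPC and, in B cells, 27 of 2011 for wild-type and 10 of 1739 for Sca1-BCL6Δ.

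**Figure D4:**
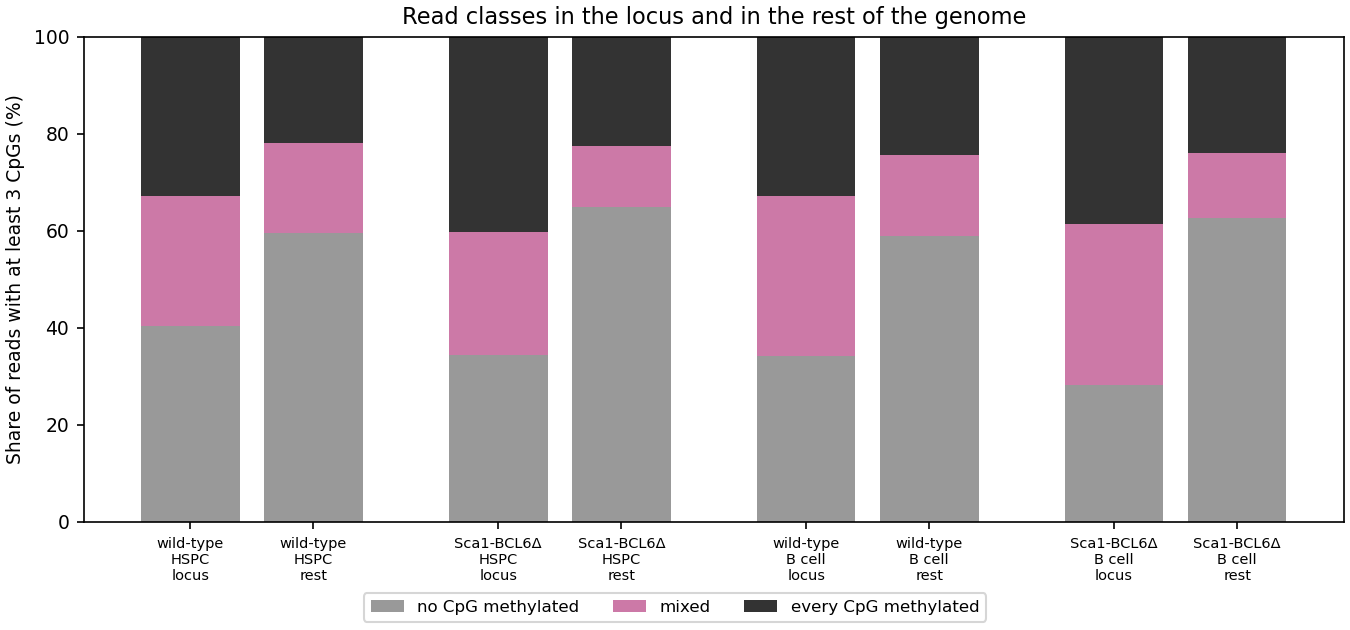
Share (%) of reads with at least 3 CpGs that carried no methylated CpG, every CpG methylated or a mixture, in the locus and in the rest of the genome, for each library. Mixed reads take 25.4% to 33.1% in the locus and 12.7% to 18.6% in the rest.

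By the number of CpGs on a read, the higher methylation level of the locus was seen in dense reads. Reads with at least 3 CpGs were also a smaller share of its reads. They were 17.4%, 17.8%, 19.3% and 17.2%, against 20.5%, 26.9%, 20.5% and 24.0% of all reads. How much this share added to the level of the locus was not tested. Reads with a single CpG were methylated in 62.8%, 70.9%, 78.5% and 76.7% of cases in the locus, in the same order of libraries, against 68.1%, 77.3%, 82.0% and 81.3% elsewhere. With 4 CpGs on a read, 36.5%, 36.4%, 36% and 43.9% of CpGs were methylated, against 24.8%, 24.0%, 25.1% and 25.4%. With 5 or more, the levels were 28.3%, 37.7%, 30.5% and 27.9% in the locus and 11.4%, 11.1%, 10.7% and 11.7% elsewhere. The locus was thus lower than the genome at isolated CpGs and higher at dense ones in all 4 libraries. Only 39, 23, 119 and 28 reads of the locus had 5 or more CpGs, and within that class the number of CpGs on a read was not matched. The share of mixed reads was already higher at 2 CpGs, with 22.6%, 22.9%, 22.6% and 22.9%, against 16.3%, 10.9%, 11.7% and 10.4% elsewhere. At 3 CpGs it was 26.2%, 28.1%, 30.7% and 32.2%, against 18.8%, 12.6%, 15.3% and 12.7%. At 4 CpGs it was 43.9% (wild-type) and 40.7% (Sca1-BCL6Δ) for B cells, and 32.4% and 19.6% for HSPC, where the last, of 46 reads, has an exact interval of 9.36% to 33.9% that includes the 12.3% of the genome. At 5 or more CpGs it was 15.4%, 17.4%, 26.1% and 17.9%, against 18.4%, 13.2%, 18.3% and 14.7% elsewhere. Those last intervals include the value elsewhere in all but the wild-type B cell library, where the lower bound is 18.4%.

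**Figure D5:**
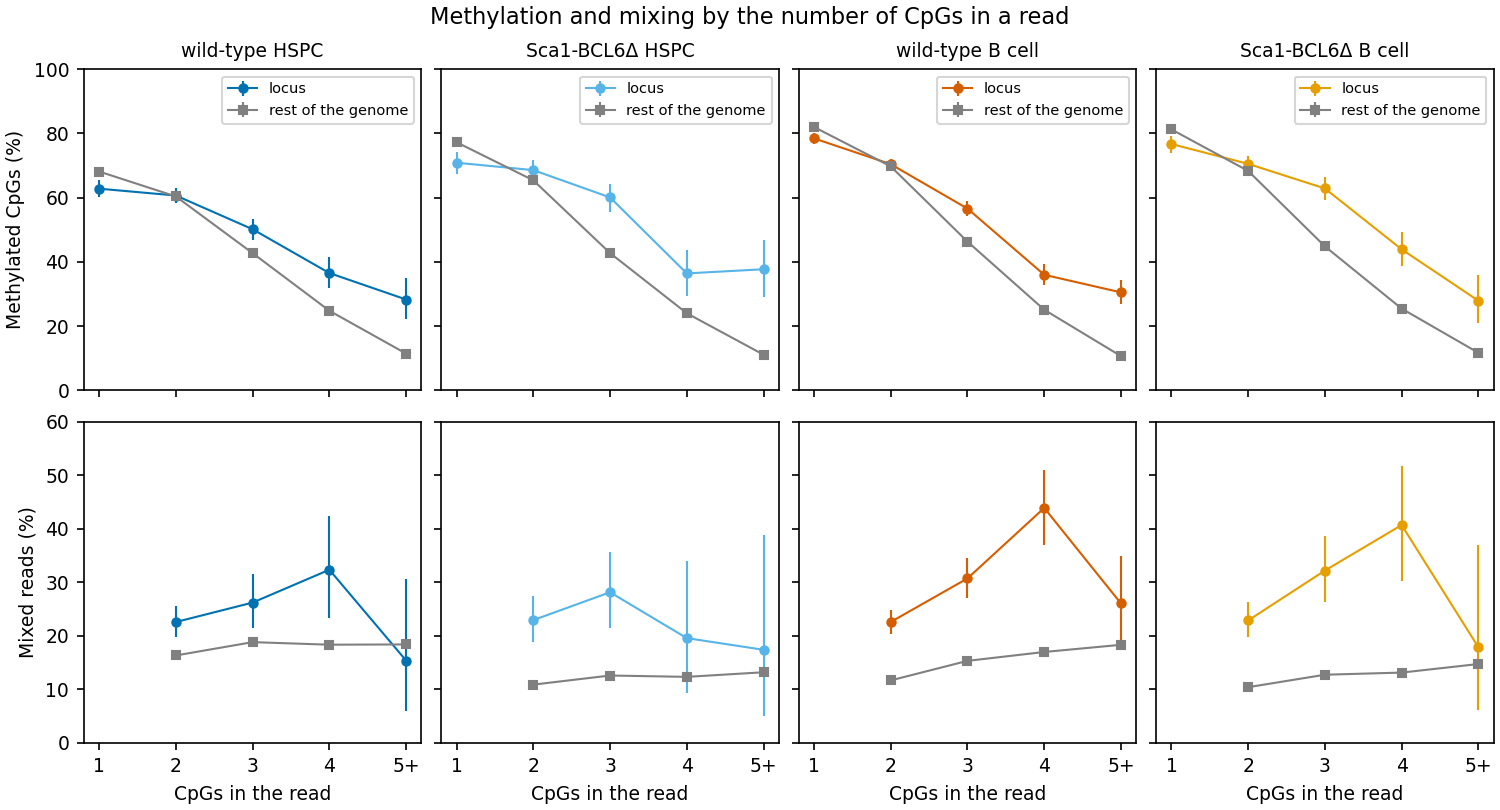
Methylated CpGs (%, top) and mixed reads (%, bottom) by the number of CpGs on the read, for the locus and the rest of the genome, 1 column for each library, with 95% intervals for counting error. At 4 CpGs methylation is 36% to 43.9% in the locus and 24.0% to 25.4% in the rest.

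The 3 lowest steps held a larger share of the unmethylated reads than of the mixed reads. Of all locus reads with at least 3 CpGs they held 158 of 450 in wild-type HSPC and 72 of 236 in Sca1-BCL6Δ HSPC. In B cells they held 309 of 913 for wild-type and 96 of 350 for Sca1-BCL6Δ. The 3 lowest steps held 62.1%, 69.1%, 64.7% and 66.7% of the fully unmethylated reads of the locus, in the same order of libraries, a share that the choice of low steps favours. They held 26.7%, 13.3%, 29.1% and 16.4% of its mixed reads. In the other steps, 30.1%, 31.7%, 35.4% and 38.2% of reads were mixed and 46.2%, 53.1%, 46.4% and 48.8% were fully methylated.

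Reads with the same first and last CpG and the same strand come from 1 fragment end and can be compared read by read. Some of them may be PCR copies of 1 molecule. Fragment ends with at least 5 such reads numbered 40, 22, 70 and 35, and 16, 8, 26 and 14 of them had a mean level of 20% to 80%. These were 40.0%, 36.4%, 37.1% and 40.0% of the ends, against 22.7%, 13.9%, 11.3% and 11.8% outside the locus. At the intermediate ends, 36.4%, 37.3%, 54.5% and 52.4% of reads were mixed, against 28.5%, 25.4%, 33.8% and 27.8% at intermediate ends elsewhere. In the B cell libraries the lower bounds of the exact binomial intervals, 48.9% and 42.4%, were above the value for the rest of the genome, while in both HSPC libraries the intervals, 28.5% to 45.0% in wild-type and 24.1% to 51.9% in Sca1-BCL6Δ, included it.

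Some ends held all 3 kinds of read at once. Fully methylated and fully unmethylated reads occurred together at 12 of the 16 intermediate ends in wild-type HSPC, 6 of 8 in Sca1-BCL6Δ HSPC, and in B cells at 12 of 26 for wild-type and 10 of 14 for Sca1-BCL6Δ. These shares, 75.0%, 75.0%, 46.2% and 71.4%, were below the 84.0%, 89.0%, 83.6% and 85.5% of intermediate ends outside the locus. Whether both kinds are seen also depends on the number of reads at an end, which was lower on average in the locus. Ends with equal numbers of reads were not compared. A pair of ends of the wild-type B cell library, chosen after their values were seen, serve as examples. The end starting at chr18:37304406, in the intermediate run described above, had 38 reads, of which 17 carried no methylated CpG, 3 were fully methylated and 18 were mixed. The end starting at chr18:37881614 had 26 reads, of which 8 were unmethylated, 7 fully methylated and 11 mixed. Different protocadherin exons are similar in sequence, and whether reads of one were placed on another was not tested.

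Methylation of the locus was higher in wild-type B cells than in wild-type HSPC, as it was in the rest of the genome. Over the 137 shared CpGs the level was 7.99 percentage points higher in B cells, and 4.73 points higher in the rest of the genome. Taken over 69 groups of CpGs that share reads, the mean difference in the locus was 10.75 points (SE 2.15), beside 10.02 points over such groups in the rest of the genome. Of the 17 steps, 7 were more than 10 points higher and 0 more than 10 points lower, where 41.9% of steps in the genome passed that size, 39.4% upward and 2.59% downward. The largest differences with B cells higher in both genotypes were at chr18:37250000-37269999, from 42.7% to 67.5% in wild-type and from 72.8% to 85.1% in Sca1-BCL6Δ, at chr18:37630000-37649999, with 24.8 and 4.26 points, and at chr18:37850000-37869999, with 14.4 and 13.1 points.

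One CpG passed the test between the wild-type cell types. A CpG was called where Fisher's exact test gave a Benjamini-Hochberg adjusted p under 0.05 and the levels were 20 points or more apart. Of 154 locus CpGs covered by 10 or more reads in each library, 1 was called, where 0.734% of CpGs in the genome were called. It lies at chr18:37822404, with 5 of 13 reads methylated in wild-type HSPC (38.5%, Wilson interval 17.7% to 64.5%) and 17 of 17 in wild-type B cells (interval from 81.6%), a two-sided Fisher's exact test adjusted p of 0.0386. Sca1-BCL6Δ HSPC had 3 of 3 reads methylated there and Sca1-BCL6Δ B cells 7 of 9. The call was lost when CpGs of 5 to 9 reads were also tested, and the next adjusted p-values of the same exact test were 0.0503 and 0.0569. Unadjusted p of the same test was under 0.05 at 19 of the 154 CpGs (12.3%), against 10.6% in the genome. At least 20 points higher in B cells were 35 CpGs, and at least 20 points lower were 8. Together these were 27.9% of the CpGs tested, against 22.5% in the genome. The test compares reads of 2 libraries, not the cell types in general.

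In 1 kb tiles, tested with the Cochran-Mantel-Haenszel test over CpGs, 0 of 16 locus tiles were called, where 0.785% of tiles in the genome were called. By the same test 2 locus tiles had an unadjusted p under 0.05 (12.5%), against 10.8% in the genome. With CpGs of at least 5 reads, 2 of 46 locus tiles and 1342 of 67190 tiles in the genome were called.

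In Sca1-BCL6Δ mice the cell types had similar mean levels in the locus. That of B cells was 2.34 points above the HSPC level over the 137 CpGs, with 0.53 points in the rest of the genome, and the mean over the 69 groups was 3.13 points (SE 2.16), beside 1.25 points over groups in the rest of the genome. Steps more than 10 points higher numbered 3 and lower 4, where 23.8% of steps in the genome passed that size, 15.2% upward and 8.57% downward. By Fisher's exact test, 0 of 14 CpGs were called, beside 0.0183% in the genome, and 0 had an unadjusted p under 0.05, beside 1.74%. Of locus tiles 0 could be tested, beside 0.018% called in the genome. Whether the change between cell types differed between genotypes was not tested, because each condition has 1 library.

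Between genotypes, the locus level was higher in Sca1-BCL6Δ than in wild-type HSPC, and so was that of the rest of the genome. The difference was 5.90 points over the 137 CpGs and 3.91 points in the rest of the genome. Over groups of neighbouring CpGs the order was the other way, with 6.43 points (SE 2.52) in the locus and 8.42 points in the rest of the genome. It lay in methylated CpGs: at 79 locus CpGs above 80% in the combined B cell reads, wild-type HSPC had 77.9% and Sca1-BCL6Δ HSPC 89.4%, a difference of 11.5 points (SE 2.82 over 52 groups) where the genome had 13.6. At 71 locus CpGs at 20% to 80% in B cells the levels were 51.9% and 52.9%, and at 18 CpGs under 20% they were 13.3% and 8.87%. The locus thus followed the library-wide gap between the 2 HSPC libraries, whose cause was not tested. In B cells the genotypes differed by 0.26 points in the locus and by -0.29 points in the rest of the genome, and over groups of CpGs by -1.18 points (SE 2.09) and -0.36 points in that order.

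Steps more than 10 points higher in Sca1-BCL6Δ HSPC than in wild-type HSPC numbered 5, and lower 1, where 43.8% of steps in the genome passed that size, 30.2% upward and 13.5% downward. In B cells 2 were higher and 2 lower, where 24.2% passed, 5.94% upward and 18.3% downward. Fisher's exact test called 0 of 26 CpGs between the HSPC libraries, where 0.037% of CpGs were called in the genome. It called 0 of 66 between the B cell libraries, where 0.0172% were called in the genome. By the same test 1 CpG had an unadjusted p under 0.05 in HSPC (3.85%, genome 4.44%) and 1 in B cells (1.52%, genome 1.68%). The Cochran-Mantel-Haenszel test called 0 of 1 tile in HSPC and 0 of 7 in B cells, with 0 at an unadjusted p under 0.05 in either, where 0.0357% and 0.00517% of tiles were called in the genome.

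Which steps differed between genotypes depended on which CpGs each library had covered. At chr18:37970000-37989999 the level was 48.4% in wild-type HSPC, 96.8% in Sca1-BCL6Δ HSPC, and B cell levels were 39.1% for wild-type and 59.3% for Sca1-BCL6Δ. Over shared CpGs, those with 3 or more reads in each library of a pair, the differences of 48.4 and 20.2 points between genotypes shrank to 2.69 points over 11 CpGs in HSPC and 0.17 points over 14 in B cells. B cells minus HSPC in the same step was -9.33 points in wild-type and -37.6 in Sca1-BCL6Δ, the only step with B cells lower in both genotypes, and became -1.24 points over 21 shared CpGs and 0.23 points over 12. Most of the difference in that step thus came from CpGs that were not shared by the pair.

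At chr18:37250000-37269999, which holds the run at chr18:37250005-37250053, the direction was the same over shared CpGs. Sca1-BCL6Δ was 30.1 points higher in HSPC and 17.6 points higher in B cells, and over shared CpGs it was 27.6 points higher over 10 CpGs in HSPC, of which 9 were higher and 0 lower, and 11 points higher over 15 in B cells, of which 10 were higher and 2 lower. Some of these CpGs lie on the same reads, so their directions are not independent. At chr18:37090000-37109999 the differences were 9.45 and 9.68 points, and 6.60 and 4.80 over shared CpGs. Both steps were thus higher in Sca1-BCL6Δ under either choice of CpGs.

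Lower in Sca1-BCL6Δ were the steps at chr18:37790000-37809999, with -10.4 points in HSPC and -27.1 in B cells, and at chr18:37990000-38009999, with -3.19 and -8.58 points. Over shared CpGs the second was at -5.81 and -13.1 points. The first kept its difference in HSPC alone: 17 CpGs had a mean of 49.5% in wild-type and 22.7% in Sca1-BCL6Δ, with 14 lower and 1 higher, while 20 CpGs in B cells differed by -0.37 points. Many CpGs of that step lie on the same reads, so their directions are not independent. The run at chr18:37803589-37803864 in that step, with 20 CpGs, had 27.2% in wild-type HSPC (Wilson interval 19.1% to 37.0%), 5.77% in Sca1-BCL6Δ HSPC (2.67% to 12%), 13.2% in wild-type B cells (9.80% to 17.7%) and 12.5% in Sca1-BCL6Δ B cells (8.06% to 18.9%). The level of wild-type HSPC was above those of the other 3 libraries there. CpGs on 1 read share its molecule, so these intervals are too narrow. For the 1 kb tile that holds the run, the Cochran-Mantel-Haenszel test between HSPC genotypes gave an unadjusted p of 0.155 from 1 thinned CpG. Between wild-type cell types the same Cochran-Mantel-Haenszel test gave an unadjusted p of 0.231 from 2. Both used CpGs of at least 5 reads, and the tile was not called in either. At CpGs under 20% in the combined B cell reads, wild-type HSPC was also higher in the rest of the genome, with 9.51% against 7.93% in Sca1-BCL6Δ HSPC.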

How the data were processed

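Per the labels and the deposited methods text, the submitters digested DNA with TaqI and MspI, amplified bisulfite libraries over 18 PCR cycles and aligned reads with a proprietary pipeline to 36-bp fragment ends. The build was mm9, per the submitters' processing notes; the aligner's version is not given in the sources used here. No removal of PCR copies is described. The authors deposited, for each CpG, methylated and total read counts with a score of mean methylation times 1000, which was not used for any value here, and for each read the percent of its CpGs methylated and their count, per the file headers.

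Levels were means over CpGs of at least 5 reads. Steps needed 5 such CpGs in every library. Fisher's exact test was run on CpGs with 10 or more reads in each of the paired libraries, and 1 kb tiles of at least 3 such CpGs, thinned to over 50 bp apart, were given the Cochran-Mantel-Haenszel test, both two-sided with Benjamini-Hochberg adjustment over the genome (Python 3.11.15, scipy 1.17.1, statsmodels 0.14.6). Scripts were tested on simulated data. Steps were named as the 3 highest and lowest by level and the 3 largest differences each way with 1 sign in both groups, runs by staying under 20% or at 20% to 80% in all 4 libraries, and CpGs and tiles by a call. The members and lists were chosen with earlier results of these data known. Alternatives were other read minimums, step and run sizes, pooled reads and shared CpGs.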

Additional observations from a re-analysis of the deposited data

Results flagged for a closer look

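Differences between genotypes, Sca1-BCL6Δ minus wild-type, pointed in opposite directions in HSPC and in B cells in 9 of the 17 steps, with 1 library for each condition and no test of the contrast. They were 4.12 points in HSPC and -2.64 in B cells at chr18:37290000-37309999, 20.52 and -0.01 at chr18:37630000-37649999, and 6.88 and -7.54 at chr18:37650000-37669999. They were 20.14 and -2.77 at chr18:37670000-37689999, and -0.98 and 1.97 at chr18:37950000-37969999. The other values were 4.06 and -6.21 at chr18:37330000-37349999, -9.78 and 1.54 at chr18:37590000-37609999, 13.16 and -3.19 at chr18:37810000-37829999, and 6.25 and -10.35 at chr18:37910000-37929999. The share of genome steps with opposite signs was not computed for this count or the next, so neither is set against the genome. Differences of B cells minus HSPC pointed in opposite directions in wild-type and in Sca1-BCL6Δ in 5 of the 17 steps, again with no test. They were 11.53 and -11.38 points at chr18:37670000-37689999, 2.50 and -14.16 at chr18:37790000-37809999, 2.11 and -8.15 at chr18:37330000-37349999, 15.65 and -0.70 at chr18:37810000-37829999, and 5.98 and -10.62 at chr18:37910000-37929999. Over shared CpGs some of these opposite signs were lost. The cell type pairs became 5.15 and 11.48 points at chr18:37330000-37349999, 13.24 and 1.66 at chr18:37810000-37829999, and 6.69 and 9.48 at chr18:37910000-37929999. That at chr18:37790000-37809999 turned to -17.85 and 7.73 points, and that at chr18:37670000-37689999 stayed opposite. The genotype pairs took the same sign at chr18:37290000-37309999, chr18:37330000-37349999, chr18:37910000-37929999 and chr18:37950000-37969999, and stayed opposite at the other steps listed.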

How the results depend on the processing

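No paired analysis was possible because each condition has 1 library. The share of runs at 20% to 80% ranged over the alternatives, with 3 to 21 runs left, from 44.4% to 76.2% in wild-type HSPC, 33.3% to 66.7% in Sca1-BCL6Δ HSPC, 33.3% to 47.6% in wild-type B cells and 33.3% to 61.9% in Sca1-BCL6Δ B cells. The locus level moved by less than its interval in 14 of 20. Over the 11 CpGs of at least 10 reads in every library it was 77.9%, 81.3%, 89.0% and 77.4% (wild-type HSPC, Sca1-BCL6Δ HSPC, wild-type B cells, Sca1-BCL6Δ B cells). Over its own CpGs Sca1-BCL6Δ HSPC had 66.3%, and pooled reads gave 61.0% in wild-type B cells. With CpGs of at least 10 reads, 1 step was left, which differed by more than 10 points between genotypes in HSPC (100% of steps) and by less in the other 3 comparisons (0.0%). Between the wild-type cell types, 0 CpGs were called at minimums of 5 or 20 reads (the called CpG has under 20), and 2 of 46 tiles at a minimum of 5 reads (genome 1342 of 67190) and 1 of 16 over all CpGs (genome 2407 of 26489). Mixed reads were 18.8% in Sca1-BCL6Δ HSPC with at least 4 CpGs, 26.8% and 37.4% in wild-type B cells with at least 2 and 4, and 26.4% in Sca1-BCL6Δ B cells with at least 2. Step differences turned sign most often, in 19 of 88 values. Only the steps named by level or by difference are in this count. Some of the remaining steps also turned sign over shared CpGs. At chr18:37910000-37929999 the genotype difference in B cells went from -10.35 to 0.53 points. With CpGs of at least 1 read, B cell minus HSPC in Sca1-BCL6Δ became -11.89 points at chr18:37290000-37309999, -2.42 at chr18:37650000-37669999, 2.92 at chr18:37670000-37689999, 5.04 at chr18:37790000-37809999 and -1.43 at chr18:37850000-37869999. In wild-type it became -1.92 at chr18:37670000-37689999, -1.99 at chr18:37950000-37969999 and 10.66 at chr18:37970000-37989999. The genotype difference in B cells became 8.17 at chr18:37630000-37649999, 5.89 at chr18:37670000-37689999 and -3.32 at chr18:37850000-37869999. Over the CpGs shared at 3 or more reads, an alternative chosen after seeing the data, the genotype difference in HSPC became -3.34 at chr18:37290000-37309999 and 4.80 at chr18:37950000-37969999. B cell minus HSPC in wild-type became -17.85 at chr18:37790000-37809999, and in Sca1-BCL6Δ -5.42 at chr18:37650000-37669999, 7.73 at chr18:37790000-37809999, -0.86 at chr18:37950000-37969999, 0.23 at chr18:37970000-37989999 and -2.53 at chr18:37990000-38009999. The cause was not tested.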
